A study of Mus musculus with 2 samples.

Results

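The G2 and mitosis genes described here are 40 mouse genes, taken by symbol from 43346 Ensembl genes measured in the embryonic hindbrain. They code for mitotic kinases, cyclins, spindle checkpoint and kinetochore proteins, condensin subunits, spindle and cytokinesis proteins, and partners of the anaphase-promoting complex. None was chosen on its measured value, though the list was set with earlier results of these data known. Total RNA longer than 200 nt was sequenced from 1 group of 2 biological replicates, with 10 ng of RNA in each library and ERCC spike-in RNAs added. All embryos were healthy, of strain B6NCrl and of embryonic day 11.5, and each replicate mixed males and females: pool 1 held 109 embryos and pool 2 held 88. The design holds no treatment or control, and each pool gave 1 library, so every difference between the pools is given as a value with no test. In bulk RNA of pooled animals, fewer cells of a type and less RNA per cell cannot be told apart.

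The libraries held 45340440 estimated reads in pool 1 and 41261544 in pool 2, of which spike-ins took 7.41% in pool 1 and 10.7% in pool 2. Levels are given in TPM, a share of all transcripts in a library that corrects reads for transcript length. The hindbrain gene Hoxa2 stood at 49.3 TPM in pool 1 and 48.1 TPM in pool 2, and Hoxb2 at 48.9 and 46.4 TPM. Six3, a marker of the anterior neural plate and eye field, stood at 0.13 TPM in pool 1 and 0.06 TPM in pool 2, so these regional markers matched the labelled tissue. Egr2, which marks a pair of rhombomeres at earlier stages, was low, at 0.99 and 0.77 TPM.

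Cells enter mitosis when Cdk1, bound to cyclin B, is freed of inhibitory phosphates by Cdc25 phosphatases. Condensin and topoisomerase II then compact the chromosomes, kinetochores attach them to the spindle, and the spindle checkpoint holds back the anaphase-promoting complex until every chromosome is attached. In the embryonic hindbrain these events take place mainly in the neural progenitors that line the ventricle, whose daughters leave the cycle as neurons. Many of these genes are switched on late in the cell cycle through promoter elements known as the cell cycle genes homology region (CHR) and the CCAAT box.

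All 40 genes were found, and all 40 reached 1 TPM in both pools, against 33% of all Ensembl genes and 59.4% of nuclear protein-coding genes. Their median was 81.7 TPM in pool 1 and 78.7 TPM in pool 2 (80.2 ± 2.11, SD, n = 2 pools). The median of detected protein-coding genes was 18.3 TPM in pool 1 and 16.9 TPM in pool 2. The most abundant gene was 17.3 times the least abundant in pool 1 and 20.2 times in pool 2. By mean level 16 genes exceeded 100 TPM, 20 lay between 30 and 100 TPM, and 4 lay under 30 TPM. Together the 40 genes made up 0.548% of all Ensembl TPM in pool 1 and 0.517% in pool 2. They lie on 14 chromosomes, with 9 on chromosome 2 and 0 on X or Y.

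**Figure D1:**
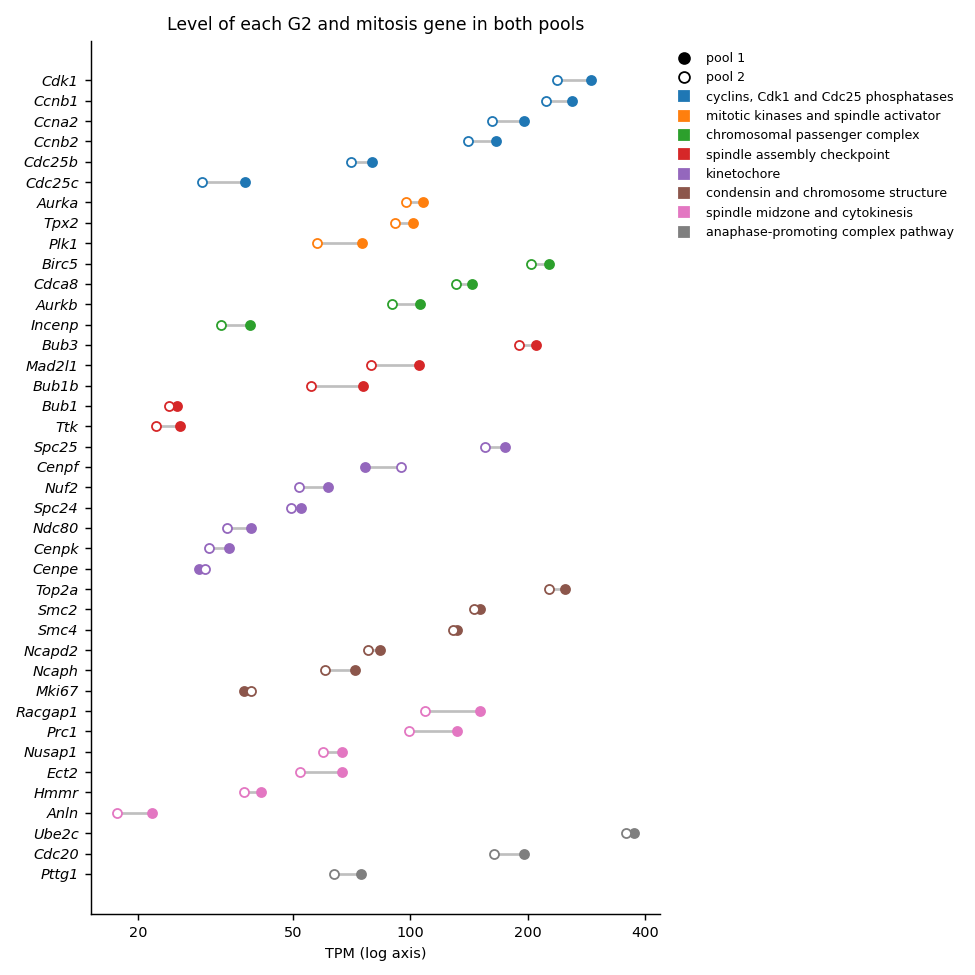
Level of each of the 40 genes in TPM on a log axis, with pool 1 and pool 2 as separate points and the genes grouped by role. Ube2c sits highest, at 375 TPM in pool 1 and 358 TPM in pool 2, and Anln lowest, at 21.7 TPM in pool 1 and 17.7 TPM in pool 2.

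The promoters of the most abundant genes, and of those with the largest pool differences, show which of these elements they carry. Each stretch of 180 bases runs from 150 bases before the annotated start to 29 bases after it, on the gene's own strand, from RefSeq promoters of build GRCm38.p6. Capitals mark the CHR spellings TTTGAA and TTTAAA and the CCAAT box on either strand, so that TTCAAA and ATTGG are the reversed forms. The first 5 are the 5 highest genes by mean TPM, while Racgap1 has the largest difference towards pool 1 and Cenpf towards pool 2.
Ube2c: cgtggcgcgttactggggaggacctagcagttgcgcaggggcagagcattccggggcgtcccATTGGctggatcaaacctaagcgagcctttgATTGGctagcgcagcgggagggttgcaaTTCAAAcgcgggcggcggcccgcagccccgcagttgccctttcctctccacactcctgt
Cdk1: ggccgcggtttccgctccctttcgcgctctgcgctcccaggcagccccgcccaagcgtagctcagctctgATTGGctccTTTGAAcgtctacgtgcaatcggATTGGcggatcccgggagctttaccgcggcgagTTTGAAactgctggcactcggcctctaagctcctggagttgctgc
Ccnb1: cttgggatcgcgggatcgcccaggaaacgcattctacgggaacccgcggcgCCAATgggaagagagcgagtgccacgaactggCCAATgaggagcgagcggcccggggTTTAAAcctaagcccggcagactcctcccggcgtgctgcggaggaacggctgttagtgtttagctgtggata
Top2a: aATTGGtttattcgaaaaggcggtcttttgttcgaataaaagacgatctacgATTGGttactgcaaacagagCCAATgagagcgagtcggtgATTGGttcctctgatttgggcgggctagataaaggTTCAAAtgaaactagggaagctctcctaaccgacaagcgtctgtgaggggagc
Birc5: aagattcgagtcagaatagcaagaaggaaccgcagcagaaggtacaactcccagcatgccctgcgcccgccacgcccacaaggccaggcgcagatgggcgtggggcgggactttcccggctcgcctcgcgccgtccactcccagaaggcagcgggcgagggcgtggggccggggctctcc
Racgap1: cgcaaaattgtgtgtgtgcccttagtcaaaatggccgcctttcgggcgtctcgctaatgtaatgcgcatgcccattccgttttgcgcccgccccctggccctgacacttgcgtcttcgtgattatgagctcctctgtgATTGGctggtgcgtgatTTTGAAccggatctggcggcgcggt
Cenpf: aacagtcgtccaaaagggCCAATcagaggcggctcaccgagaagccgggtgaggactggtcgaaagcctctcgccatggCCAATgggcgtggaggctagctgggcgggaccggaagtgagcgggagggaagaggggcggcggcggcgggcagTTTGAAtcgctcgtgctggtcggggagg
These lie at chr2:164769779-164769958 on the plus strand for Ube2c, chr10:69352883-69353062 on the minus strand for Cdk1, chr13:100786457-100786636 on the minus strand for Ccnb1, chr11:99024160-99024339 on the minus strand for Top2a and chr11:117849087-117849266 on the plus strand for Birc5. Those of Racgap1 and Cenpf lie on the minus strand, at chr15:99651627-99651806 and chr1:189688057-189688236. Birc5 held neither CHR spelling and no CCAAT box in these bases, while Cdk1 held TTTGAA at 71 and at 15 bases before the start. Ccnb1 held the TTTAAA spelling at 42 bases before the start, and Racgap1 and Cenpf held TTTGAA at 5 and 2 bases past it. Positions are those of the first base of the motif in the printed direction.

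A promoter of 300 bases, from 250 before the start to 50 after it, was given for 33 of the 40 genes. It was not used here for Incenp, Aurkb, Tpx2, Smc4, Cdc25c, Spc24 and Ccna2. TTTGAA or its reverse occurred in 22 of the 33 (66.7%), against 13.9% of detected protein-coding genes and 20.2% of all genes with a promoter. CCAAT or its reverse occurred in 25 (75.8%), against 43.6% of detected protein-coding genes and 41.1% of all genes. The TTTAAA spelling occurred in 7 (21.2%), against 11.2% of detected protein-coding genes and 14.9% of all genes. GGCGG, a GC-rich spelling that can overlap a reversed CCAAT box as ATTGGCGG, occurred in 31 (93.9%), against 87.2% of detected protein-coding genes and 51.2% of all genes. A CHR spelling and a CCAAT box stood together in 22 of the 33 (66.7%), against 9.38% of detected protein-coding genes and 12.2% of all genes. CCAAT boxes occurred at least 2 times in 18 of the 33 (54.5%), against 16.9% of detected protein-coding genes and 13.3% of all genes. Both CHR spellings were missing from the windows of Bub1, Cdc25b, Cenpk, Mad2l1, Ncaph, Nuf2, Nusap1 and Pttg1. Within 50 bases of the start, a range chosen after the positions were seen, TTTGAA occurred in 20 of the 33 genes (60.6%), against 3.71% of detected protein-coding genes and 5.72% of all genes. A match describes the letters of the window and not a bound site. Genes with TTTGAA had a median of 120 TPM in pool 1 and 98.2 TPM in pool 2. The 11 without it had 72.2 TPM in pool 1 and 60.6 TPM in pool 2, but include Birc5, Ccnb1 and Cenpe, which hold TTTAAA. These medians count non-coding transcripts too, a large part of the TPM of Smc2, Cdk1, Top2a and Ncapd2, which all hold TTTGAA. A link between motif and level was not tested. Pairs of CCAAT boxes 31 to 33 bases apart on the same strand, a spacing chosen after the positions were seen, occurred in 7 of the 33 (21.2%), against 1.79% of detected protein-coding genes and 0.918% of all genes. The 7 were Aurka, Ccnb1, Ccnb2, Cdk1, Hmmr, Spc25 and Ube2c, among them both B-type cyclins and their kinase.

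**Figure D2:**
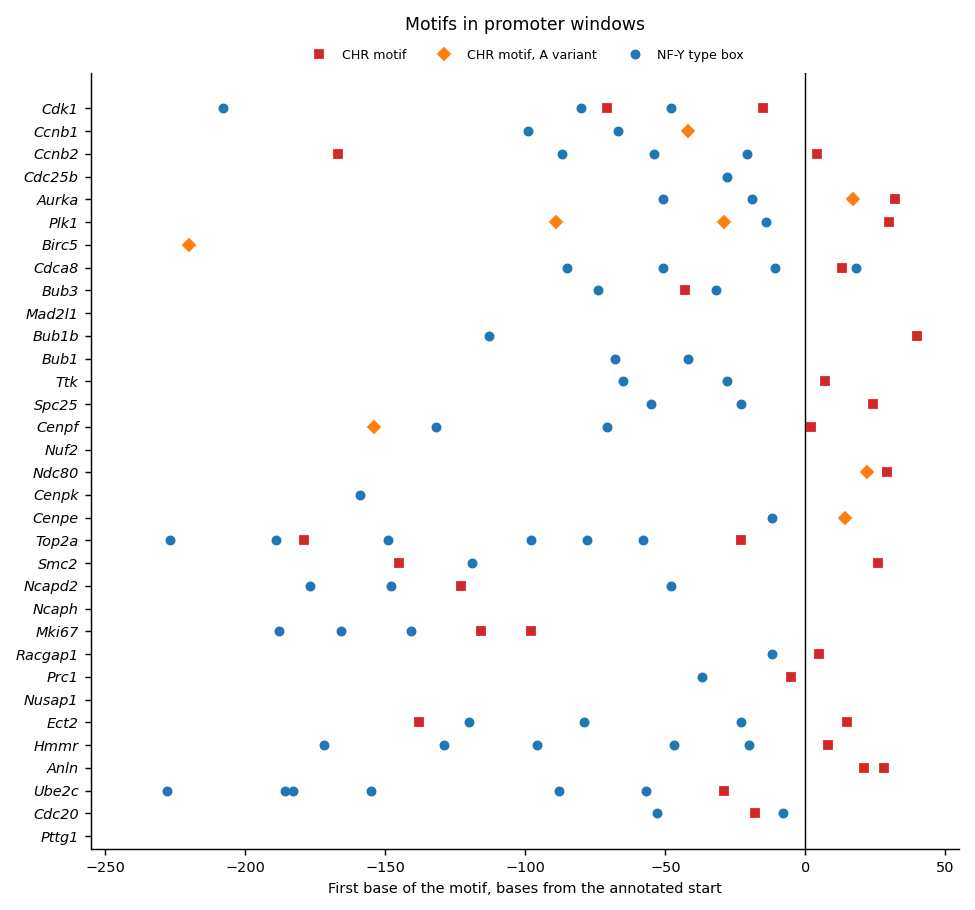
Positions of the CHR motif (TTTGAA), its A variant (TTTAAA) and the CCAAT box (drawn as NF-Y type box, for the factor known to bind it) in the promoters of the 33 genes, as distance in bases from the annotated start, with genes grouped by role. Where a gene has several annotated starts, the window lowest on the chromosome is drawn. The CHR squares gather near the start, where 20 of the 33 genes hold TTTGAA within 50 bases of it. The GC-rich spelling is not drawn.

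The cyclins and Cdk1, which drive entry into mitosis, were among the most abundant of the 40 genes. Cdk1 (chr10:69335146-69352938, minus strand), the kinase at the centre of mitotic entry, stood at 291 TPM in pool 1 and 238 TPM in pool 2. Its B-type partner Ccnb1 (chr13:100778650-100786570, minus strand) stood at 260 TPM in pool 1 and 222 TPM in pool 2, and Ccnb2, the second B-type cyclin, at 166 and 141 TPM. Ccnb1 was 1.57 times Ccnb2 in pool 1 and 1.58 times in pool 2, so their ratio barely moved between the pools. Ccna2, the A-type cyclin of S and G2 phase, stood at 196 TPM in pool 1 and 162 TPM in pool 2. The phosphatases that activate Cdk1 were lower than the cyclins, with Cdc25b at 79.8 TPM in pool 1 and 70.5 TPM in pool 2, and Cdc25c at 37.8 and 29.3 TPM. All 6 of these genes were higher in pool 1 than in pool 2 by TPM, as were 37 of the 40 genes. The median gene with a mean of at least 1 TPM was itself 1.08-fold higher in pool 1. The share of all genes higher in pool 1 by TPM was not counted.

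Among the mitotic kinases, Aurka, which acts at the spindle poles, stood at 108 TPM in pool 1 and 97.5 TPM in pool 2. Its spindle activator Tpx2 lay close to it, at 102 TPM in pool 1 and 91.5 TPM in pool 2. Plk1, which acts at centrosomes, kinetochores and the midzone, was lower, at 75.1 TPM in pool 1 and 57.6 TPM in pool 2. The chromosomal passenger complex, which corrects faulty attachments, was unevenly represented at the RNA level. Birc5 (survivin; chr11:117849251-117855743, plus strand) stood at 226 TPM in pool 1 and 204 TPM in pool 2, and Cdca8 (borealin) at 144 and 131 TPM. Aurkb, the kinase of the complex, stood at 106 TPM in pool 1 and 90.01 TPM in pool 2, and its scaffold Incenp at 38.9 and 32.7 TPM. Birc5 was 5.82 times Incenp in pool 1 and 6.24 times in pool 2.

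Spindle checkpoint genes spread more widely than any of the complexes compared. Bub3, which binds the kinetochore scaffold together with Bub1 and Bub1b, stood at 210 TPM in pool 1 and 191 TPM in pool 2. Mad2l1, the Cdc20-binding checkpoint protein, stood at 105 TPM in pool 1 and 79.4 TPM in pool 2. Bub1b (BubR1; chr2:118598211-118641591, plus strand) stood at 75.5 TPM in pool 1 and 55.5 TPM in pool 2. The kinases Bub1 and Ttk (Mps1) lay at the low end and their pool ranges overlapped, with Bub1 at 25.2 TPM in pool 1 and 23.98 TPM in pool 2, and Ttk at 25.6 and 22.3 TPM. The highest of the 5 genes was 8.32 times the lowest in pool 1 and 8.56 times in pool 2.

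The 4 subunits of the Ndc80 complex, which links kinetochores to microtubules, had unequal RNA levels. Spc25 stood at 176 TPM in pool 1 and 155 TPM in pool 2, against 39.0 and 33.9 TPM for Ndc80. Nuf2, which pairs with Ndc80, stood at 61.5 TPM in pool 1 and 51.9 TPM in pool 2, and Spc24, which pairs with Spc25, at 52.3 and 49.5 TPM. Spc25 thus exceeded Ndc80 4.5-fold in pool 1 and 4.59-fold in pool 2. Of the other kinetochore genes, Cenpf stood at 76.4 TPM in pool 1 and 94.5 TPM in pool 2. The inner kinetochore gene Cenpk stood at 34.3 TPM in pool 1 and 30.5 TPM in pool 2, and the kinesin gene Cenpe at 28.6 and 29.8 TPM. By TPM, Cenpf and Cenpe were higher in pool 2, unlike the other 5 kinetochore genes. Relative to the median gene, a scale given below, Spc24 also lay towards pool 2, at -0.03.

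Condensin and chromosome structure genes were led by Top2a (chr11:98992943-99024189, minus strand), the topoisomerase that untangles sister chromatids, at 250 TPM in pool 1 and 227 TPM in pool 2. The condensin ATPases Smc2 and Smc4 were close to each other: Smc2 stood at 151 TPM in pool 1 and 145 TPM in pool 2, and Smc4 at 132 and 129 TPM. The condensin I subunits were lower, with Ncapd2 at 83.6 TPM in pool 1 and 78.1 TPM in pool 2, and Ncaph at 72.2 and 60.6 TPM. Smc2 was 2.10 times Ncaph in pool 1 and 2.40 times in pool 2. Mki67, the widely used proliferation marker Ki-67, which coats mitotic chromosomes, was near the low end of the 40 genes at 37.4 TPM in pool 1 and 39.0 TPM in pool 2.

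Genes of the spindle midzone and cytokinesis were headed by Racgap1 (chr15:99620496-99651656, minus strand), part of the centralspindlin complex, at 151 TPM in pool 1 and 109 TPM in pool 2. Prc1, which bundles midzone microtubules, stood at 132 TPM in pool 1 and 99.0 TPM in pool 2. Ect2, the exchange factor that Racgap1 recruits to activate RhoA, stood at 66.9 TPM in pool 1 and 52.1 TPM in pool 2. All 6 genes of this role, these 3 included, were higher in pool 1 by TPM, as was the median gene. Nusap1, a microtubule-binding protein, stood at 66.9 TPM in pool 1 and 59.7 TPM in pool 2, and Hmmr, which acts in spindle assembly, at 41.3 and 37.4 TPM. Anln (chr9:22332012-22389188), the actin-binding anillin of the contractile ring, stood at 21.7 TPM in pool 1 and 17.7 TPM in pool 2.

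The anaphase-promoting complex marks cyclin B and securin for destruction. Its E2 enzyme Ube2c (chr2:164769898-164778822, plus strand) was the most abundant of the 40 genes, at 375 TPM in pool 1 and 358 TPM in pool 2. The activator Cdc20 stood at 196 TPM in pool 1 and 164 TPM in pool 2, and securin, Pttg1, at 74.8 and 63.8 TPM. The 17 subunits and other regulators of the complex had a median of 82.6 TPM in pool 1 and 77.9 TPM in pool 2, which differed from the median of the 40 genes by 0.00 ± 0.02 on the log2(TPM + 1) scale (SD, n = 2 pools). Among them were Anapc5, a scaffold subunit, at 323 and 284 TPM in pools 1 and 2, and Ube2s, which extends ubiquitin chains, at 307 and 290 TPM.

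The level of many of these genes depended on which transcripts were counted, because TPM gives short transcripts the same weight as long ones. The 40 genes had 208 annotated transcripts, 10 genes having a single one, and the leading transcript was the same in both pools for 39 of 40. By reads, protein-coding transcripts made up over 90% in both pools for 35 genes. By TPM they made up over 95% in both pools for 20 genes and under 75% in both for 5. In Smc2 they made up 33.4% in pool 1 and 32.8% in pool 2, because Smc2-203, a processed transcript of 643 nt without a coding frame, took 50.1% of the TPM in pool 1 and 52.5% in pool 2. The same transcript took 16.0% of the reads of Smc2 in pool 1 and 17.5% in pool 2. In Cdk1 the coding share of TPM was 55.5% in pool 1 and 59.5% in pool 2, with most of the rest in the retained-intron transcripts Cdk1-203 and Cdk1-204, of 378 and 475 nt. By reads its coding share was 82.1% in pool 1 and 84.7% in pool 2. Counted by coding transcripts alone, Cdk1 stood at 162 TPM in pool 1 and 142 TPM in pool 2, and ranked 10 among the 40 genes in place of 2.

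Top2a, Ncapd2 and Smc4 were the other 3 genes under 75% by TPM. Top2a had a coding share of 69.9% in pool 1 and 60.5% in pool 2, which left it at 175 TPM in pool 1 and 138 TPM in pool 2. By reads its coding share was 94.1% in pool 1 and 91.2% in pool 2. Ncapd2 had a coding share of 53.8% of TPM in pool 1 and 44.1% in pool 2, but 89.0% and 84.8% by reads. Smc4 had a coding share of 60.3% in pool 1 and 57.2% in pool 2, and its transcript of 4057 nt, annotated as a target of nonsense-mediated decay, took 60.1% of its reads in pool 1 and 59.5% in pool 2. Condensin therefore changed order by this measure: Smc4 was highest and Ncapd2 lowest, 1.77-fold apart in pool 1 and 2.14-fold in pool 2. The order in the Ndc80 complex held, with Spc25 4.32 times Ndc80 in both pools. Ube2c, Ccnb1, Birc5 and Bub3 were the highest 4 genes by coding transcripts. Pttg1 was the exception in its leading transcript: Pttg1-203 took 49.0% in pool 1 and 33.9% in pool 2, while Pttg1-202 took 39.1% and 57.6%, and both are coding.

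**Figure D3:**
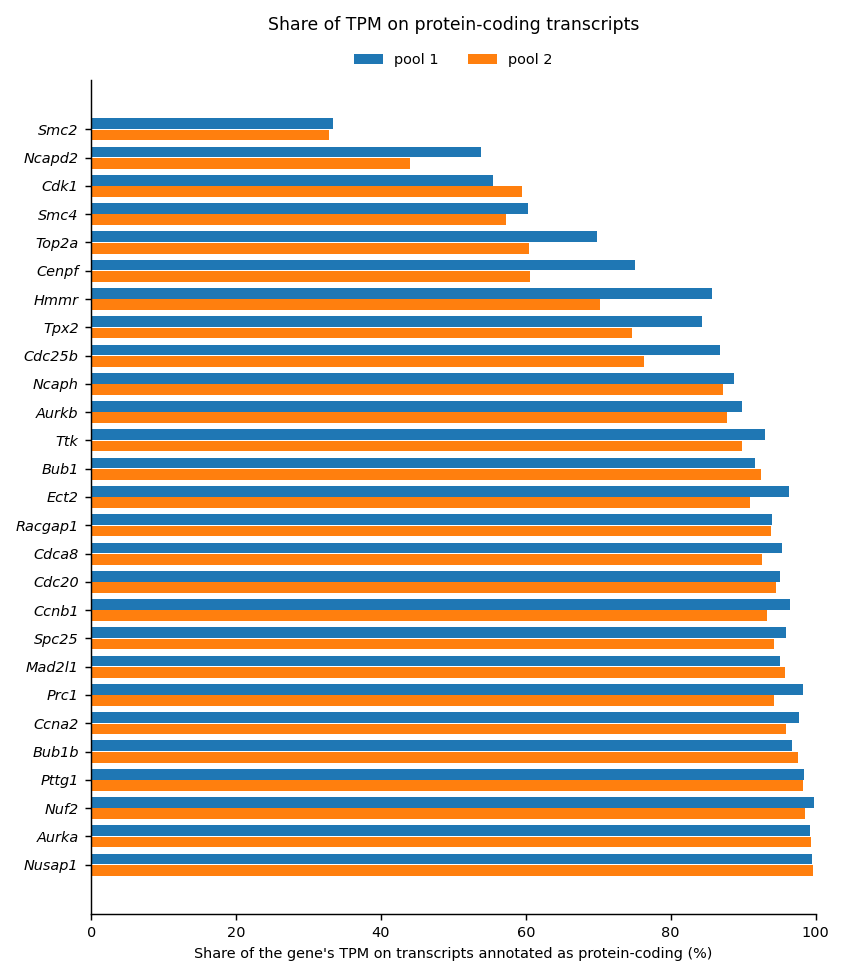
Share of each gene's TPM in annotated protein-coding transcripts, in percent, for pool 1 and pool 2, with genes at or near full share in both pools left out. Smc2 is lowest, at 33.4% in pool 1 and 32.8% in pool 2, and Ncapd2, Cdk1, Smc4 and Top2a also lie under 75%.

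Reads of most of the 40 genes could be placed with little doubt. The deposited posterior SD of the count was 0 in both pools for 27 genes and at most 0.175% of the count for the other 13. The retrocopies Ccnb1-ps and Ccnb2-ps had few reads beside their parents: Ccnb1-ps stood at 1.22 TPM in both pools, and Ccnb2-ps at 3.24 TPM in pool 1 and 2.52 TPM in pool 2. Strand use in counting was not given in the sources used here, so reads of genes that overlap on opposite strands may not be separable. Such a neighbour had over 10% of the reads of 6 genes, the largest being Ppwd1 beside Cenpk at 48.5% and Fgfr2 beside Bub3 at 41.01%. Exosc9 beside Ccna2 reached 22.7%, Oip5 beside Nusap1 16.1%, Elovl1 beside Cdc20 14.3% and Gm3550 beside Cdc25c 13.0%.

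The pools were close for nearly all of the 40 genes. By TPM 37 genes were higher in pool 1, and Cenpf, Cenpe and Mki67 were higher in pool 2. TPM here includes the spike-ins, which took 16.2% of it in pool 1 and 22.2% in pool 2. The TPM left for all genes together was thus smaller in pool 2. Since the median gene was itself 1.08-fold higher in pool 1, differences are given as log2(TPM + 1) in pool 1 minus pool 2, relative to the median of genes with a mean of at least 1 TPM. On this scale 31 genes lay above the median gene and 9 below it (77.5% above), against 50% of genes with a mean of at least 1 TPM and 58.5% of protein-coding genes with a mean of at least 10 TPM. Centred on all genes with no filter, 36 of the 40 lay above the centre. That centre was lower, which raised every gene by the same amount and put the median of the 40 at 0.13. The share of all genes above that centre was not counted. Relative to the median gene, the 40 genes had a median of 0.08 and ran from -0.41 to 0.35. All 40 lay within the central 95% of protein-coding genes with a mean of at least 10 TPM, which ran from -0.44 to 0.37. Across the 40 genes the pools correlated with r = 0.991 on the log2 scale, a description over genes of the same libraries.

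A threshold of 0.32 in log2 units, that is 25% above or 20% below the median gene, was used to count genes as apart. It was passed by 3 of the 40 genes, against 9.77% of protein-coding genes of at least 10 TPM and 19.7% of genes of at least 1 TPM. Racgap1 was 1.28-fold higher and Bub1b 1.26-fold higher in pool 1, where 4.39% of those protein-coding genes and 6.6% of genes of at least 1 TPM passed it. Cenpf was 1.33-fold higher in pool 2, where 5.38% of those protein-coding genes and 13.1% of genes of at least 1 TPM passed it. By deposited counts in place of TPM, scaled with TMM factors, none of the 40 passed it: Racgap1 and Bub1b lay at 0.30 each and Cenpf at -0.21. Just inside the threshold on the TPM scale were Prc1, at 0.30 on the log2 scale, and Mad2l1, at 0.29. The share of 3 in 40 was near or under the background, so the genes past the threshold did not stand out in number. None of the 34 spike-ins with at least 1000 reads in both pools passed it, and the log2 ratios of these RNAs had an SD of 0.075. Of the 40 genes, 17 lay within 1 such SD of the median gene and 13 beyond 2. The shares of all genes at these distances were not counted, so the 2 counts do not set the 40 genes apart.

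**Figure D4:**
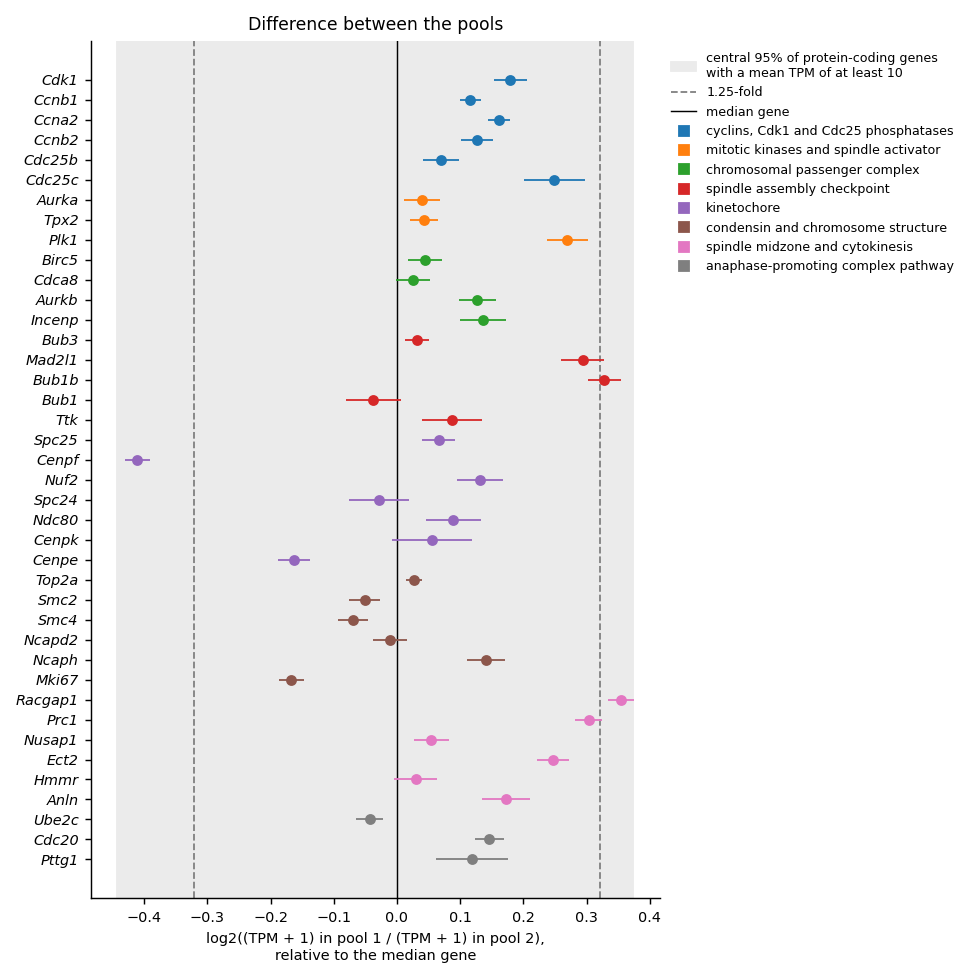
Difference of each of the 40 genes between pool 1 and pool 2 in log2(TPM + 1), relative to the median gene, with dashed lines at the threshold of 0.32, bars of 1 counting SE and a grey band for the central 95% of protein-coding genes. The bars come from total read counts and leave out how reads were split over transcripts, which also moves TPM. Points right of 0 were higher in pool 1. Racgap1 (0.35), Bub1b (0.33) and Cenpf (-0.41) lie outside the lines.

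The difference of Cenpf (chr1:189640606-189688086, minus strand) depended in part on its short transcripts. Its coding transcripts alone gave 57.4 TPM in pool 1 and 57.3 TPM in pool 2, a difference of -0.11 relative to the median gene. Cenpf-201, of 609 nt and annotated as a target of nonsense-mediated decay, took 20.7% of its TPM in pool 1 and 33.3% in pool 2, but 2.34% of its reads in pool 1 and 4.41% in pool 2. The coding transcript Cenpf-204, of 11130 nt, took 65.1% of its reads in pool 1 and 65.3% in pool 2. By counts with TMM factors Cenpf still lay at -0.21. Genes with the longest transcripts lay lower in pool 1: protein-coding genes with a transcript length over 6 kb had a median of -0.15, against 0.01 for those of 1 kb or less. Mki67, of 10075 nt, lay at -0.17 and Cenpe, of 7813 nt, at -0.16, so both were near the median of their length class. The part of transcript length in these differences was not tested.

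By role, the midzone and cytokinesis genes had the highest median difference, 0.21, with 6 of 6 above the median gene. Of protein-coding genes of at least 10 TPM, 58.5% lay above it. The cyclins, Cdk1 and the Cdc25 phosphatases had a median of 0.14, also with 6 of 6. Genes of the anaphase-promoting complex pathway had a median of 0.12, with 2 of 3 above the median gene. The spindle checkpoint genes had 0.09 with 4 of 5, and the passenger complex genes 0.09 with 4 of 4. The mitotic kinases and Tpx2 had 0.04 with 3 of 3, against 0.15 by counts with TMM factors and 0.22 with protein-coding transcripts only. Kinetochore genes had a median of 0.06 with 4 of 7 above it, and condensin and chromosome structure genes -0.03 with 2 of 6. The direction of this last role depended on the scale: its median was 0.10 by counts with TMM factors, 0.08 with protein-coding transcripts only and 0.02 with no filter on the centring genes, each with 4 of 6 above. Ncapd2 lay at -0.01 by TPM, 0.20 by counts with TMM factors and 0.27 with protein-coding transcripts only. In the S phase list all 24 genes lay above the median gene, with a median of 0.16. The skeletal muscle list, of 6 genes with no marker at 0, summed to 77.4 TPM in pool 1 and 37.0 TPM in pool 2. Its 5 genes with a mean of at least 1 TPM all passed the threshold towards pool 1, against 6.6% of all genes at that level. The neural crest and sensory ganglia list, also 6 genes with no marker at 0, summed to 136 TPM in pool 1 and 93.8 TPM in pool 2, with 6 of 6 above the median gene. The part of these tissues in the differences of the 40 genes was not tested.

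Other genes of G2 and mitosis were lower than the 40 genes as a group. All 80 of them reached 1 TPM in both pools, with a median of 34.9 TPM in pool 1 and 31.8 TPM in pool 2, and the 40 genes lay 1.24 ± 0.05 above them on the log2(TPM + 1) scale (SD, n = 2 pools). Zwint, a kinetochore protein, was highest at 355 TPM in pool 1 and 316 TPM in pool 2. The Cdk-binding subunits Cks1b and Cks2 followed, with Cks1b at 312 TPM in pool 1 and 283 TPM in pool 2, and Cks2 at 231 and 206 TPM. Cenpa, the centromeric histone, stood at 230 TPM in pool 1 and 198 TPM in pool 2, and Tacc3, which stabilizes spindle microtubules, at 190 and 158 TPM. These 5 reached the levels of the cyclins. The lowest were Arhgap11a, at 4.84 TPM in pool 1 and 6.18 TPM in pool 2, the kinesin gene Kifc1 at 7.54 and 3.67 TPM, and the centromere protein gene Cenpb at 6.62 and 6.20 TPM. Of the 80, 50 lay above the median gene, 4 passed the threshold towards pool 1 (Gtse1, Cdc25a, Kntc1 and Kifc1) and 1 towards pool 2 (Arhgap11a). Among protein-coding genes of at least 10 TPM these shares were 58.5%, 4.39% and 5.38%. Among genes of at least 1 TPM they were 50%, 6.6% and 13.1%.

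Set against other gene groups of the tissue, the 40 genes lay between S phase genes and neuronal genes. They exceeded the 24 S phase genes, whose median was 72.4 TPM in pool 1 and 62.4 TPM in pool 2, by 0.25 ± 0.11 in log2(TPM + 1). The S phase list was led by Rrm2, a ribonucleotide reductase subunit, at 295 TPM in pool 1 and 230 TPM in pool 2, and Pcna, the replication clamp, at 251 and 216 TPM. The 40 genes lay 0.75 ± 0.19 above the 12 progenitor genes, whose leading members Vim and Fabp7 nevertheless stood at 1053 and 1016 TPM in pool 1 and at 1018 and 923 TPM in pool 2. Against 11 genes of cell cycle exit they were 1.48 ± 0.18 higher, although the inhibitor gene Cdkn1c stood at 590 TPM in pool 1 and 464 TPM in pool 2, and Gadd45g at 135 and 119 TPM. The 14 neuronal genes had a median of 195 TPM in pool 1 and 172 TPM in pool 2, so that the 40 genes lay 1.18 below them, a difference of -1.18 ± 0.08 (SD, n = 2 pools). With list means in place of medians the difference was -0.59. Tubb3, the neuronal tubulin, stood at 762 TPM in pool 1 and 654 TPM in pool 2, and Rtn1, a reticulon of the endoplasmic reticulum, at 361 and 332 TPM.

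**Figure D5:**
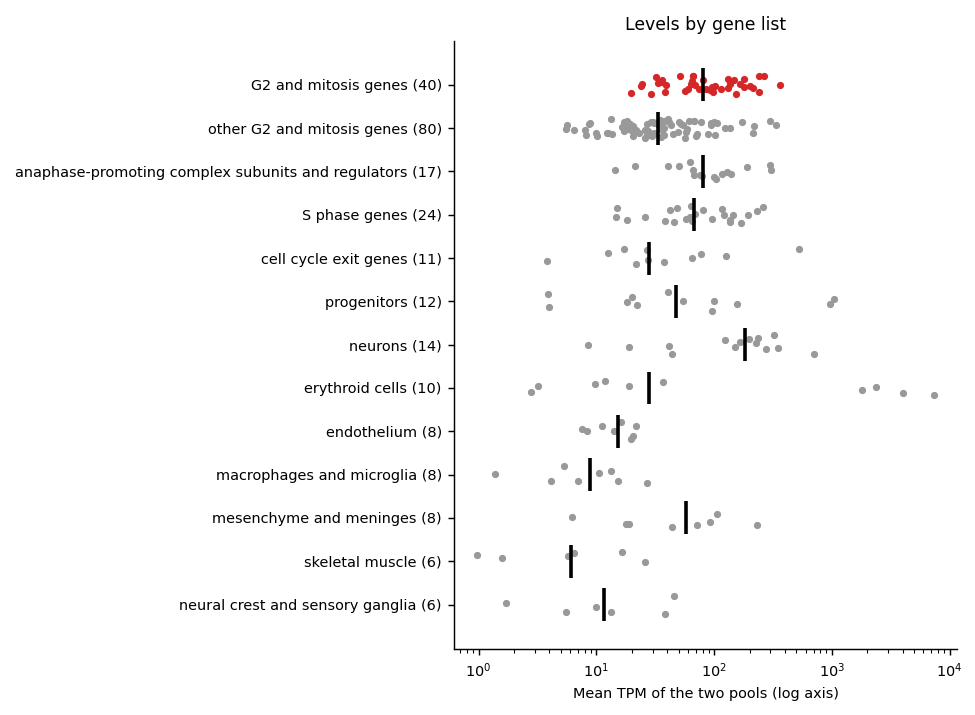
Mean TPM over the pools of each gene, on a log axis, by list, with the number of genes in brackets and a bar at each list's median. The 40 genes, with a median of 81.7 TPM in pool 1 and 78.7 TPM in pool 2, lie above the other G2 and mitosis genes and below the neuronal genes.

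Markers from the lists of other cell types were also present. Erythroid genes, which were led by the globin genes Hbb-y at 7661 TPM in pool 1 and 7091 TPM in pool 2, and Hba-a2 at 4129 and 3850 TPM, summed to 16120 TPM in pool 1 and 15080 TPM in pool 2 over the 10 genes matched. The sums were 127 and 112 TPM in pools 1 and 2 for 8 endothelial genes, 84.4 and 83.1 TPM for 8 macrophage and microglia genes, and 600 and 580 TPM for 8 genes of mesenchyme and meninges. The leading genes in pools 1 and 2 were Esam at 23.5 and 20.0 TPM and Cldn5 at 23.6 and 17.4 TPM in endothelium, and C1qb at 25.9 and 27.7 TPM and Tyrobp at 17.3 and 13.1 TPM in macrophages. In mesenchyme they were the collagen genes Col3a1, at 244 and 221 TPM, and Col1a2, at 114 and 98.2 TPM. Those of the muscle list were Actc1, at 36.1 and 15.8 TPM, and Tnnt1, at 20.6 and 12.4 TPM, and those of the neural crest and ganglia list were Pou4f1, at 53.1 and 38.1 TPM, and Isl1, at 45.4 and 31.6 TPM. Cycling cells of these types hold G2 and mitosis transcripts too, and the part of such cells in the levels of the 40 genes was not tested.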

How the data were processed

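Per the labels, extraction used mirVana, libraries followed a Smart-Seq document and ERCC RNAs were spiked in. The assembly was mm10 and the annotation GENCODE M4, per the readme beside the tables; which aligner, quantifier and strand setting were used was not given in the sources used here. For each library the authors deposited gene and transcript tables of expected counts, TPM and FPKM. The deposited signal columns hold interval bounds of TPM and the posterior SD of the count, and the deposited percent column gives each transcript's share of its gene's TPM.

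The members and lists were chosen with earlier results of these data known. Symbols and coordinates came from GENCODE vM21 (GRCm38), which matched 42462 of 43346 Ensembl IDs. Spike-ins were left out of gene counts and gene medians. Differences between pools used log2(TPM + 1) minus the median of 14942 genes with a mean of at least 1 TPM, and a gene was counted as apart past a fold of 1.25. Expected counts were rounded before scaling with edgeR 4.0.16 (TMM) and DESeq2 1.42.0 size factors in R 4.3.3, with no test. Promoters came from RefSeq (GRCm38.p6). Other steps used Python 3.11.15 with pandas 2.3.3, and the centring step was checked on simulated data. Alternatives were the unit, the pseudocount, the centring, the fold, the count scaling and the transcripts counted. No test was made, because 1 group of 2 libraries allows none, and the SD over the pools holds any technical spread as well. All 40 genes are described, with the 5 highest and 3 lowest of the other G2 and mitosis genes, and the 2 highest genes of each other list.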

Additional observations from a re-analysis of the deposited data

How the results depend on the processing

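All 40 genes stayed detected with either pool left out and at thresholds of 0.5 and 5 TPM. Their median, 80.2 TPM, lay at 78.7 to 81.7 TPM with a pool left out, at 53.4 in FPKM, at 115 with TPM rescaled over protein-coding nuclear genes and at 65.9 with protein-coding transcripts only, an alternative chosen after seeing the data. With a pool left out, the log2 difference from other lists ran from 0.17 to 0.33 for S phase genes, from 0.62 to 0.89 for progenitor genes, from -1.23 to -1.12 for neuronal genes and from 1.20 to 1.28 for other G2 and mitosis genes. The difference from neuronal genes was -0.59 with list means. Genes past the threshold between the pools, 3 on the TPM scale, numbered 0 by counts with TMM factors, 0 with DESeq2 size factors, 0 at 1.5-fold and 6 with no filter on the centring genes, where Mad2l1, Plk1 and Prc1 joined Racgap1, Bub1b and Cenpf. With protein-coding transcripts only they were Ect2, Prc1 and Racgap1, all higher in pool 1. The median pool difference of the 40 genes stayed between 0.05 and 0.14 under every unit, scaling, centring and transcript setting. Of 360 recomputed differences of single genes, 24 moved by more than the spike-in SD of 0.075 and 15, in 9 genes, changed sign. Each of these 9 genes lay within 0.07 of the median gene by TPM, and none of the 3 genes past the threshold changed sign. The causes were not tested. No paired analysis was possible because the design holds 1 group, with no groups to pair. The counting SE of a gene's pool difference was at most 0.063 on the log2 scale, which is as large as the difference of some genes, such as Cenpk with an SE of 0.063 and a difference of 0.06. It leaves out how reads were split over transcripts. The number of libraries, 1 per pool, also limits every difference.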

Other observations

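Some regulators of the same pathway are not among the 40 genes. Those given here were picked after their values were seen, so their levels do not stand for such regulators as a group. Others given above, such as Cks1b and Ube2s, were higher. Wee1 and Pkmyt1, the kinases that hold Cdk1 inactive, stood at 18.8 and 21.5 TPM in pool 1 and at 17.7 and 17.9 TPM in pool 2. The transcription factor gene Foxm1 stood at 29.99 TPM in pool 1 and 31.9 TPM in pool 2, and Mybl2 at 15.0 and 12.2 TPM. Cdc25a, the third Cdc25 phosphatase, stood at 23.4 TPM in pool 1 and 15.1 TPM in pool 2. All 3 Cdc25 genes were thus higher in pool 1 by TPM, as was the median gene. For the anaphase-promoting complex, its late activator Fzr1 (Cdh1) stood at 68.6 TPM in pool 1 and 55.9 TPM in pool 2, under Cdc20 in both pools, and its inhibitor Fbxo5 (Emi1) at 53.3 and 48.1 TPM.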
